A study of Mus musculus with 12 samples.

Results

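The genes described here encode the integrin chains, the selectin ligand and the hyaluronan receptor with which B-lineage cells hold on to bone marrow and vessel walls. They are the integrin alpha chains Itga4, Itga5, Itga6 and Itgal, the integrin beta chains Itgb1, Itgb2 and Itgb7, the selectin ligand Selplg and the hyaluronan receptor Cd44. The rule that chose them used names and no measured value, although earlier results of these data were known. All 9 were found among the 51826 genes of the count table. RNA-Seq was performed on 12 mouse pre-B cell lines to compare cells transformed by BCR-ABL1 with their untransformed counterparts. Bone marrow cells of 2 C57BL/6 mice were grown with interleukin 7 (IL7) for 7 days, and the cells of each mouse then received either the empty vector pMIG (EV) or pMIG carrying BCR-ABL1, the kinase made by the Philadelphia translocation, by retroviral transduction. Each mouse gave 3 EV lines and 3 BCR-ABL1 lines from separate experiments, so that 6 lines stood in each group, and a line is named by its mouse and a letter, as in EV 2C. After 48 h, IL7 was taken away from the BCR-ABL1 lines for 1 week, while the EV lines were kept in IL7 and were sorted for the GFP of the vector. No line carried BCR-ABL1 with IL7 or the empty vector without it, so the effects of the kinase, of IL7 withdrawal and of the GFP sort cannot be told apart.

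Integrins are heterodimers of an alpha and a beta chain, and the pairing sets the ligand. Alpha4 pairs with beta1 (VLA-4) or beta7 and binds VCAM-1 and fibronectin, or MAdCAM-1, alpha5beta1 binds fibronectin, alpha6beta1 binds laminin, and alphaL pairs with beta2 as LFA-1, which binds ICAM-1. PSGL-1, the product of Selplg, lets cells roll on selectins once it has been glycosylated and sulfated, and CD44 binds hyaluronan. VLA-4 and CD44 are known for holding B-cell precursors to marrow stroma. RNA levels say nothing about surface protein, ligand binding or the active state of an integrin.

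Total counts on genes lay between 34791011 and 64547911 in EV lines and between 45230023 and 66011225 in BCR-ABL1 lines. The lines carried B-lineage RNA, since all 9 B-lineage markers examined (such as Cd79a and Ebf1) passed the filter on low counts and none was called changed. Their summed level was between 2528 and 4634 CPM (counts per 1000000 counts, after TMM scaling) for EV and between 2749 and 3508 CPM for BCR-ABL1. Markers of other cells were low, with 11 myeloid markers summing to at most 1.87 CPM, 8 T and NK markers to at most 3.76 CPM, 6 mast cell and basophil markers to at most 0.429 CPM and 9 erythroid and megakaryocyte markers to at most 4.32 CPM in any line. Of these, 5, 2, 4 and 3 markers had no more than 3 counts in every line. Cd3d and Itga2b were called lower in BCR-ABL1 lines, and none of these markers was called higher. The 9 stromal and endothelial markers summed to between 32.7 and 172 CPM with the empty vector and to between 82.0 and 102 CPM with BCR-ABL1, and the only one of them to pass the filter was Pecam1, which hematopoietic cells also express. EV 2C differed most from its sister lines, with a chi-square statistic per gene of 320 and 480 against EV 2A and EV 2B, whereas EV 2A against EV 2B gave 73.8. EV 2A stood apart in low counts, since 66.9% of 25712 genes that failed the filter but had any count were highest there. The part of these differences in the results was not tested, and values without a line are given where a call or a value turned on it.

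Scaled to the length of its merged exons, Itgb1 was the most abundant of the 9 transcripts in both groups. In EV lines the mean length-scaled level (CPM per kb of exon) was 25.5 ± 11.6 (SD, n = 6) for Itgb1, 21.4 ± 1.37 for Selplg and 17.7 ± 5.49 for Itga4. Itgb2 followed at 7.80 ± 1.33, Cd44 at 6.09 ± 1.07 and Itga6 at 5.64 ± 2.88. Each of these neighbours in the order overlapped in range with the next. Itgal lay below all of them at 0.528 ± 0.573. Itgb7 at 0.0807 ± 0.0523 and Itga5 at 0.0156 ± 0.0211 came last, with ranges that overlapped in turn, although Itgal exceeded Itgb7 and Itgb7 exceeded Itga5 in 6 of 6 lines. In BCR-ABL1 lines Itga6 stood at 16.2 ± 1.46, level with Itga4 at 17.4 ± 3.35, with the higher value held by Itga4 in 3 of 6 lines. There Itga6 was above Itgb2 (9.86 ± 0.642) and Cd44 (3.82 ± 0.934) without overlap, whereas in EV lines Cd44 exceeded Itga6 in 3 of 6 lines. Itgb1 (32.6 ± 4.82) and Selplg (27.3 ± 1.80) overlapped at the top, and Itgal (1.97 ± 0.414), Itgb7 (0.205 ± 0.0453) and Itga5 (0.00677 ± 0.00913) kept the last places without overlap among them.

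**Figure D1:**
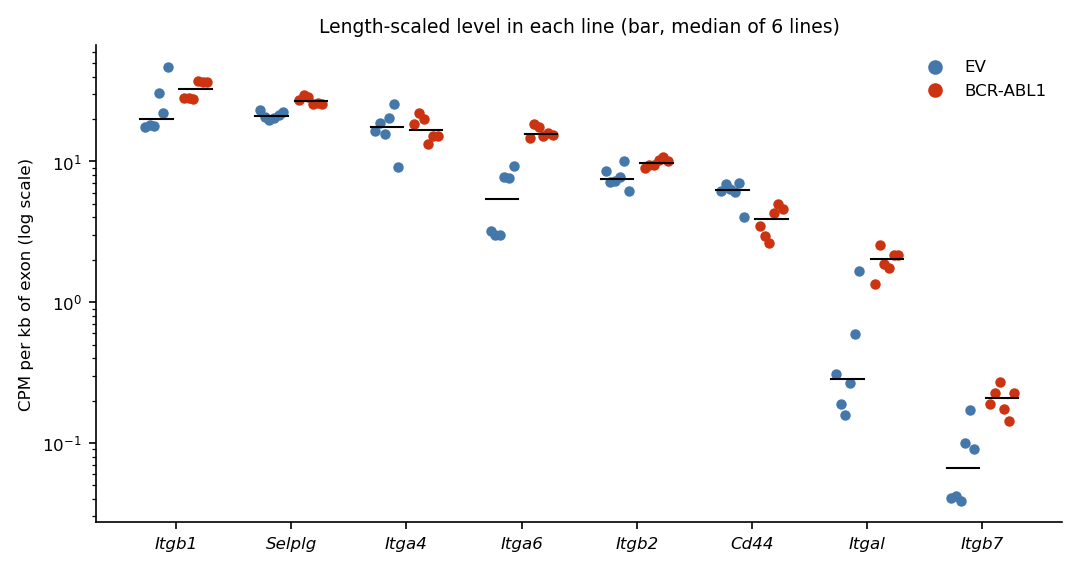
Length-scaled level (CPM per kb of merged exon, log axis) of 8 of the 9 genes in the 6 EV and 6 BCR-ABL1 lines, with a bar at the median of each group; Itga5 is left out because it was at 0 in 3 lines. Itga6 overlapped with Cd44 in EV lines and with Itga4 in BCR-ABL1 lines, and Itgal and Itgb7 were the lowest in both groups.

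In the quasi-likelihood fit of all 12 lines without a block, Itga6 was the member called higher. Of the 8 that passed the filter, 1 was called higher and 0 were called lower in BCR-ABL1 lines by edgeR's quasi-likelihood glmTreat against a 1.5-fold change, at a Benjamini-Hochberg adjusted p below 0.05 over 15038 genes. Over all tested genes 5.99% were called higher and 6.49% lower. DESeq2 called 1 member higher, and the likelihood ratio fit called 3 higher, Itga6, Itgal and Itgb7, which were also the 3 with an unadjusted p under 0.05 in edgeR. Both tools called 0 members lower, and 0 had an unadjusted p under 0.05 in that direction. The share of all genes called by DESeq2 or by the likelihood ratio fit is not given here, so these counts stand without a comparison. The cells of both groups came from the same 2 mice, and with mouse as a block 3 of the 8 were called higher, Itga6, Itgal and Itgb7, and 0 lower, beside 7.49% higher and 7.18% lower among all genes. Against no change at all, Itga6, Itgal, Itgb2, Itgb7 and Selplg were called higher and Cd44 lower, where 22.5% of all genes were called higher and 25.9% lower. At the median, the 8 genes had a log2 fold change of 0.35 and all tested genes one of -0.024. Groups did not overlap for Itga6 and Selplg, 2 of 8 genes, and 25.6% of all tested genes had groups that did not overlap.

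**Figure D2:**
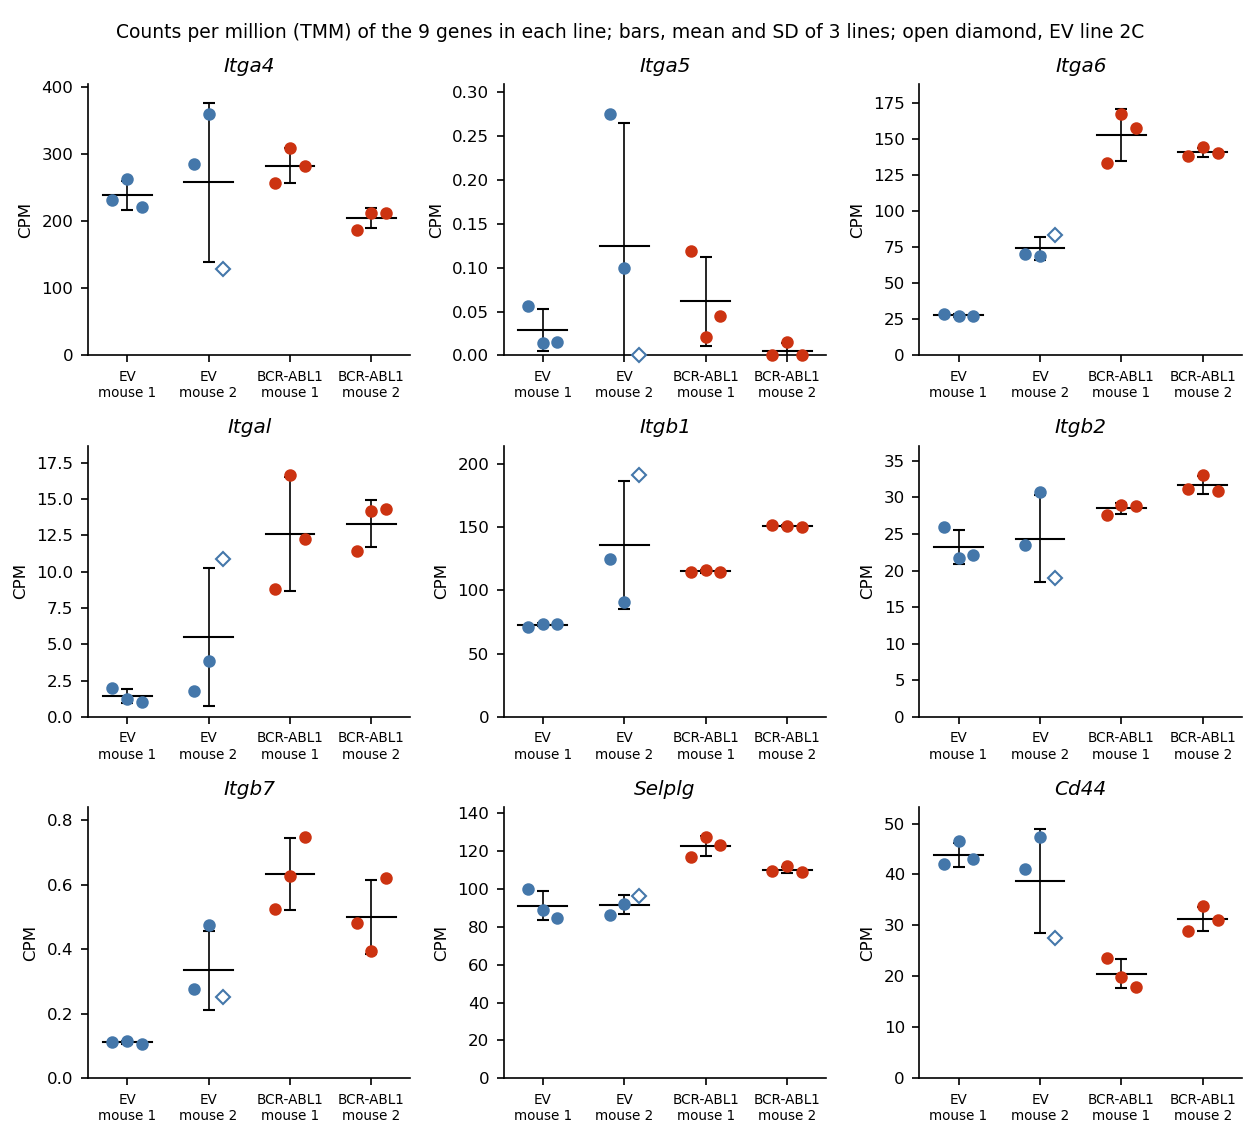
CPM (linear axes from 0) of each of the 9 genes in the 12 lines by group and mouse, with the mean and SD of 3 lines; the open diamond is EV 2C. Itga6 was higher in all 6 BCR-ABL1 lines than in any EV line, and EV 2C lay among the BCR-ABL1 lines for Itgal and Cd44.

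Itga4, the alpha4 chain of VLA-4 (chr2:79255426-79333123, plus strand, GRCm38), had the highest mean of the alpha chains per kb of exon in both groups and did not pass the test in either direction. It stood at 232, 262 and 220 CPM in EV 1A, 1B and 1C and at 284, 360 and 128 CPM in EV 2A, 2B and 2C. BCR-ABL1 lines 1A, 1B and 1C had 257, 308 and 282 CPM, and 2A, 2B and 2C had 187, 212 and 212 CPM. The groups overlapped over their whole range, and the lowest and the highest value were both EV lines of mouse 2. Here and below, the SE beside a fold change is that of the difference of mean log2 CPM between the groups, not of the edgeR fit. The log2 fold change of Itga4 was -0.03 (SE 0.23, adjusted p = 1) in edgeR, and the sign turned under several settings, such as mouse 1 alone. Its exons share 1124 bases with Cerkl on the other strand, and Cerkl stood between 2.04 and 4.24 CPM in all lines.

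Itga5, the alpha5 chain of the fibronectin receptor (chr15:103344286-103366763, minus strand), was next to absent. EV lines 1A to 1C had 3, 1 and 1 counts and EV lines 2A to 2C had 9, 5 and 0 counts. BCR-ABL1 lines had 7, 1 and 2 counts in mouse 1 and 0, 1 and 0 counts in mouse 2. Only EV 2A, EV 2B and BCR-ABL1 1A exceeded the floor of 3 counts, and the highest value was in EV 2A, the line with the raised low counts. The gene failed the filter, so it was not tested and no fold change is given. Its beta1 partner was the most abundant of the 9 transcripts per kb of exon.

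Itga6, the alpha6 chain of laminin receptors (chr2:71745616-71858416, plus strand), rose in every BCR-ABL1 line. EV 1A, 1B and 1C had 28.8, 27.0 and 27.0 CPM, and EV 2A, 2B and 2C had 70.2, 69.1 and 83.2 CPM. The BCR-ABL1 lines had 133, 167 and 157 CPM in mouse 1 and 138, 144 and 140 CPM in mouse 2. The BCR-ABL1 lines of both mice shared a level, whereas the EV lines of mouse 2 lay above those of mouse 1 without overlap. It had a log2 fold change of 1.53 (SE 0.32), a 2.88-fold rise, with an adjusted p of 0.014 in edgeR's quasi-likelihood glmTreat. The call was made under each alternative tried, with adjusted p between 9.14e-09 and 0.0406.

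Itgal, the alphaL chain of LFA-1 (chr7:127296260-127335138, plus strand), was low in the EV lines of mouse 1, at 68 to 107 counts, and stood at 520 to 933 counts in all BCR-ABL1 lines. EV 1A, 1B and 1C had 2.01, 1.24 and 1.04 CPM, and EV 2A, 2B and 2C had 1.75, 3.87 and 10.9 CPM. The BCR-ABL1 lines had 8.82, 16.7 and 12.2 CPM in mouse 1 and 11.4, 14.2 and 14.3 CPM in mouse 2. EV 2C lay inside the BCR-ABL1 range, and the other 5 EV lines lay below it. Over all 12 lines the edgeR log2 fold change of 1.90 (SE 0.52, adjusted p = 0.0586) missed the threshold. With mouse as a block it was 2.19 with an edgeR adjusted p of 0.0167. Without EV 2C, the line inside the BCR-ABL1 range, it was 2.71 with an adjusted p of 0.000317. The other 11 fits with a line left out did not call Itgal. Adjusted p over all alternatives ran from 9.33e-06 to 0.492.

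Among the beta chains, Itgb1 (chr8:128685654-128733200, plus strand), the partner of alpha4, alpha5 and alpha6, did not pass the test. EV lines had 71.3, 73.6 and 73.2 CPM in mouse 1 and 125, 91.0 and 191 CPM in mouse 2. BCR-ABL1 lines had 115, 116 and 114 CPM in mouse 1 and 152, 151 and 150 CPM in mouse 2. In mouse 1 the groups did not overlap, and in mouse 2 EV 2C was the highest of all lines. Its edgeR log2 fold change was 0.35 (SE 0.25, adjusted p = 1), and without EV 2C it was 0.62 (adjusted p = 0.543). Itgb2 (chr10:77530252-77565708, plus strand), the beta2 chain of leukocyte integrins, had between 19.0 and 30.7 CPM with a median of 22.8 in EV lines, and between 27.6 and 33.1 CPM with a median of 30.0 in BCR-ABL1 lines. The ranges overlapped through EV 2B, and the log2 fold change of 0.34 (SE 0.10) had an adjusted p of 1 beyond 1.5-fold and of 0.019 in edgeR against no change.

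Itgb7 (chr15:102215995-102231944, minus strand), the beta chain that pairs with alpha4 for gut homing and with alphaE, was a rare transcript in all lines. EV lines had 6, 8 and 7 counts in mouse 1 and 9, 24 and 14 counts in mouse 2, or 0.112, 0.116 and 0.108 CPM and 0.276, 0.477 and 0.252 CPM. BCR-ABL1 lines had 31, 30 and 33 counts in mouse 1 and 25, 26 and 30 counts in mouse 2, or 0.526, 0.627 and 0.750 CPM and 0.482, 0.395 and 0.623 CPM. The groups overlapped through EV 2B. Itgb7 had a log2 fold change of 1.36 (SE 0.33, edgeR adjusted p = 0.0709), and one of 1.45 with an edgeR adjusted p of 0.0408 with mouse as a block. Without EV 2B, the line through which the groups overlapped, it was 1.73 with an edgeR adjusted p of 0.00893. The other 11 fits with a line left out did not call Itgb7. Over all alternatives adjusted p ran from 0.000145 to 0.869. Of the RNA for both alpha4 partners, Itgb7 made up 0.194% to 0.766% in EV lines and 0.385% to 0.958% in BCR-ABL1 lines, per kb of exon.

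Selplg (chr5:113818536-113832644, minus strand), which encodes the selectin ligand PSGL-1, showed a small and even difference. EV lines had 99.8, 88.9 and 84.9 CPM in mouse 1 and 86.5, 92.0 and 96.5 CPM in mouse 2. BCR-ABL1 lines had 117, 128 and 123 CPM in mouse 1 and 109, 112 and 109 CPM in mouse 2. The groups did not overlap, and the log2 fold change was 0.35 (SE 0.05). It did not exceed 1.5-fold (adjusted p = 1), and against no change the edgeR adjusted p was 0.000661.

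Cd44 (chr2:102811141-102901665, minus strand), the hyaluronan receptor, had a lower mean in BCR-ABL1 lines, and the test against 1.5-fold did not call it. EV lines had 42.1, 46.5 and 43.0 CPM in mouse 1 and 41.0, 47.4 and 27.5 CPM in mouse 2. BCR-ABL1 lines had 23.7, 20.0 and 17.95 CPM in mouse 1 and 29.0, 33.7 and 31.0 CPM in mouse 2. EV 2C lay inside the BCR-ABL1 range and the other 5 EV lines lay above it. Its log2 fold change was -0.67 (SE 0.19, adjusted p = 0.477), with an edgeR adjusted p of 0.00758 against no change and a range of 0.000266 to 1 over all alternatives. Without EV 2C it was -0.76 (edgeR adjusted p = 0.178).

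In bulk RNA, a difference in the number of cells that carry a transcript and a difference in RNA per cell cannot be told apart. The lines of each mouse were also tested alone. In mouse 1, Itga6 (log2 fold change 2.48), Itgal (3.16) and Itgb7 (2.47) were called higher and Cd44 (-1.08, edgeR adjusted p = 0.000266) was called lower, beside 16.3% of genes higher and 12.2% lower. In mouse 2 Itga6 (0.93) was called higher and 0 members lower, beside 3.99% higher and 2.65% lower.

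The difference of the effect between the mice was tested as an interaction, and 3 of the 8 genes passed, Itga6, Itgb7 and Cd44, beside 16.9% of all tested genes. The effect in mouse 2 was smaller than that in mouse 1 by 1.54 log2 units for Itga6 (edgeR adjusted p = 3.35e-05) and by 1.92 for Itgb7 (adjusted p = 0.0115). For Cd44 the log2 fold change in mouse 2 was 0.79 closer to 0 (adjusted p = 0.049), a call that was lost in 9 of 12 fits with a line left out. Of the other members, 3 passed when a line or the filter was left out. Itga4 passed without EV 2C (-0.90, edgeR adjusted p = 0.000822), Itgb1 without EV 2B (-0.73, adjusted p = 0.0185), and Itgal without EV 2A (-2.29, adjusted p = 0.0224) and with no gene filter (-1.85, adjusted p = 1.96e-07), against -1.87 (adjusted p = 0.115) in the fit of all lines. For Itga6 the EV lines averaged 27.6 ± 1.01 CPM in mouse 1 and 74.2 ± 7.86 CPM in mouse 2 (SD, n = 3), while the BCR-ABL1 lines averaged 152 ± 17.8 and 141 ± 3.16 CPM. For Cd44 the BCR-ABL1 lines averaged 20.5 ± 2.91 CPM in mouse 1 and 31.2 ± 2.40 CPM in mouse 2.

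**Figure D3:**
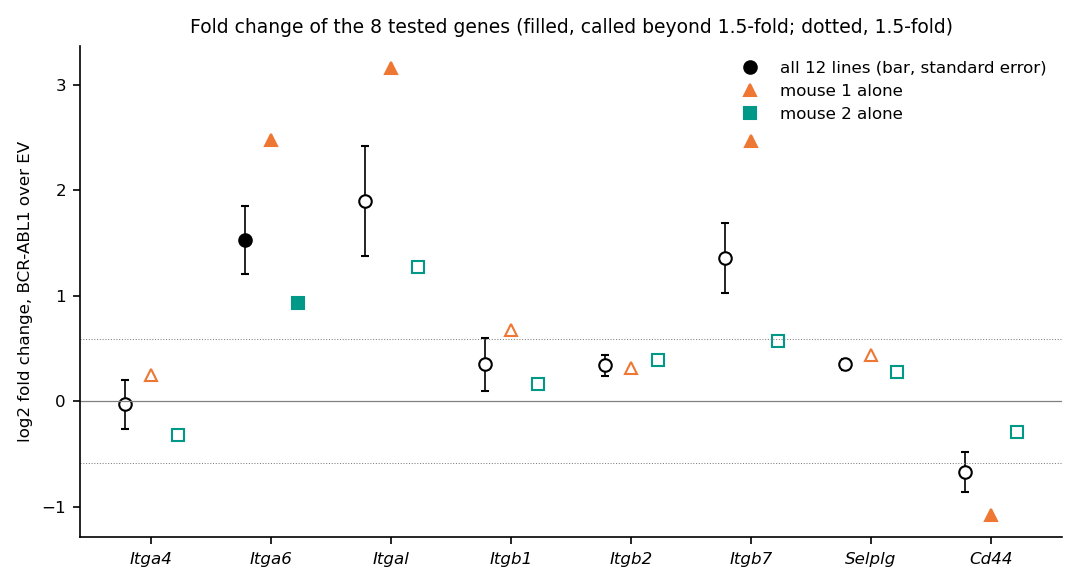
Log2 fold change of the 8 tested genes over all 12 lines (circles, with the standard error of the difference of mean log2 CPM), in the lines of mouse 1 (triangles) and of mouse 2 (squares); filled symbols were called beyond a 1.5-fold change. Itga6 was called in all 3 fits, and Itgal, Itgb7 and Cd44 were called in mouse 1 alone.

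The log2 ratio of 2 transcripts was also compared within each line. These were partner chains (Itgal to Itgb2), integrin chains that share a partner, and Cd44 with Selplg, which are not integrins. Apart from a prior count of 2 added to each transcript, such a ratio does not depend on library scaling. The ratio of Itga6 to Itga4 was -3.28 to -0.63 in EV lines and -0.95 to -0.44 in BCR-ABL1 lines, a difference of 1.68 (SE 0.41, two-sided exact permutation p = 0.00866, adjusted over 5 ratios 0.0216). EV 2C alone of the EV lines reached the BCR-ABL1 range. Of the summed RNA of Itga4, Itga5 and Itga6 per kb of exon, Itga6 made up 13.8% to 16.1% in EV lines of mouse 1. Its share was 22.9% to 50.1% in EV lines of mouse 2 and 44.4% to 53.3% in BCR-ABL1 lines. Other alpha chains that pair with beta1 were not counted in this share. The ratio of Itgal to Itgb2, the chains of LFA-1, was -4.35 to -0.80 in EV lines and -1.64 to -0.80 in BCR-ABL1 lines, a difference of 2.03 (SE 0.54, exact permutation p = 0.013, adjusted 0.0216). Itgb2 exceeded Itgal in every line, in CPM and per kb of exon.

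The ratio of Itgb7 to Itgb1 differed by 0.92 (SE 0.33, exact permutation p = 0.0238, adjusted 0.0298), from -9.36 to -7.47 in EV lines and from -8.44 to -7.18 in BCR-ABL1 lines. That of Cd44 to Selplg differed by -1.04 (SE 0.23, exact permutation p = 0.00433, adjusted 0.0216), from -1.81 to -0.93 in EV lines and from -2.78 to -1.73 in BCR-ABL1 lines. All ratios overlapped between the groups. Within the mice, the difference was 2.21 in mouse 1 and 1.14 in mouse 2 for Itga6 to Itga4, 2.81 and 1.24 for Itgal to Itgb2, 1.49 and 0.34 for Itgb7 to Itgb1, and -1.53 and -0.54 for Cd44 to Selplg. The ratio of Itga5 to Itga4 did not pass the test (exact permutation p = 0.312), and it rests on Itga5 counts at or near the floor. The ratio of Itgb7 to Itgb1 rests on 6 to 33 Itgb7 counts per line, so the prior count moves it. With a prior count of 0.5 its difference was 1.05 (exact permutation p = 0.0195).

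**Figure D4:**
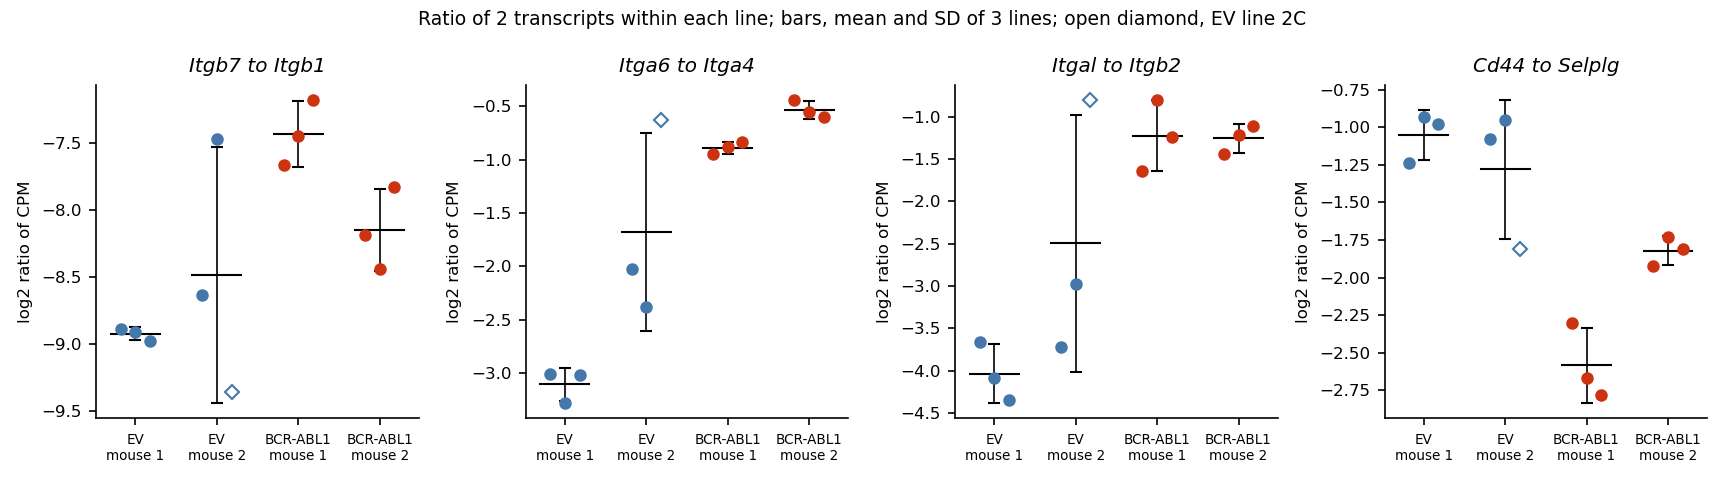
Log2 ratio of CPM (with a prior count of 2) of 2 transcripts within each line by group and mouse, with the mean and SD of 3 lines; the open diamond is EV 2C. The ratios of Itga6 to Itga4 and of Itgal to Itgb2 were higher in BCR-ABL1 lines than in all EV lines but EV 2C.

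Promoter windows of 250 bases before the start site are shown for 4 of the genes. Itga4 and Itga5 are alpha chains of the same beta1 partner with the highest and the lowest mean among the alpha chains, and Itgb7 and Cd44 were called in opposite directions in mouse 1. Sequences are from RefSeq on GRCm38.p6, written on the strand of the gene, and capitals mark matches on either strand to GGAA (the core of ETS sites) and TGTGGT (RUNX).
Itga4, chr2:79255176-79255425, plus strand: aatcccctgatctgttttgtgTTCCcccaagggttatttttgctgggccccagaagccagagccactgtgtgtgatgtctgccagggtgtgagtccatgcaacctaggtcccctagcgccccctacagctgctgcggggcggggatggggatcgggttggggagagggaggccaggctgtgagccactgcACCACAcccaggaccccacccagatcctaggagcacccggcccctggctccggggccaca
Itga5, chr15:103366792-103367041, minus strand: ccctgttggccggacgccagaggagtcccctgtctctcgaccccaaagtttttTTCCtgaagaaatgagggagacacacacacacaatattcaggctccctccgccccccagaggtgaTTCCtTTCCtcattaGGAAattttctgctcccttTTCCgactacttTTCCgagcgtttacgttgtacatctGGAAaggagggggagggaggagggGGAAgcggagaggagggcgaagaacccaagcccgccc
Itgb7, chr15:102231936-102232185, minus strand: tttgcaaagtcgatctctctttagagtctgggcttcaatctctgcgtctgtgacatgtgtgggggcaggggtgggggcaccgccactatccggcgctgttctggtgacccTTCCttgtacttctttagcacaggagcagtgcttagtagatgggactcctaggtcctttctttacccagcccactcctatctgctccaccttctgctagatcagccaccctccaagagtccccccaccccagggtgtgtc
Cd44, chr2:102901666-102901915, minus strand: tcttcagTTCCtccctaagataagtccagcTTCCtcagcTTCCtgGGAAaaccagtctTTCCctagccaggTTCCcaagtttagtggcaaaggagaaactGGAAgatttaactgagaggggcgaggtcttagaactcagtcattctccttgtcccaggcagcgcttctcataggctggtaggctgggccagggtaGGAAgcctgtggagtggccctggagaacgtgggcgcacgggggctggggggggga
The windows of Itga5 and Cd44 held 8 matches each to GGAA and those of Itga4 and Itgb7 held 1 each, where the median of 32851 promoters was 3 and 93.4% held at least 1. TGTGGT matched once, in Itga4, and 14% of all windows held it. TTCNNNGAA, the spaced STAT motif, had no match in these windows and was found in 7.02% of all. GGGCGG, the GC box, matched 1 time in Itga4 and 2 times in Itga5 and in none of the other 2 windows, against 32.7% of all windows. GC content was 64% in Itga4, 55.6% in Itga5, 56% in Itgb7 and 56.4% in Cd44, and the median of all was 52.4%.

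Other adhesion genes were read from 6 lists with 117 genes in all, of which 116 were in the table and 75 were tested. In BCR-ABL1 lines 9 were called higher and 6 lower, and 60 did not pass, beside 5.99% higher and 6.49% lower among all tested genes. The median log2 fold change of the 75 was -0.06, and that of all tested genes was -0.02. With mouse as a block the calls were 12 higher and 6 lower, beside 7.49% and 7.18% of all tested genes. EV 2A was the highest line for 36 of the 41 list genes that failed the filter, and none of these exceeded 0.736 CPM in any line. Without EV 2A the calls were 11 higher and 5 lower, and without EV 2C they were 13 higher and 9 lower. The share of all genes is not given for fits with a line left out, so these counts stand without a comparison.

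Among the other integrin chains, 7 of 19 were tested, with 1 called higher and 3 lower, and a median log2 fold change of -0.34. Itgb3, the beta3 chain of vitronectin receptors, rose from a median of 0.653 CPM to 2.81 CPM (log2 fold change 1.94, edgeR adjusted p = 0.000833). Itgav, the alphav partner of beta3 and the chain of this list with the highest mean CPM, fell from a median of 128 CPM to 49.7 CPM (log2 fold change -1.34, adjusted p = 0.0106). The call of Itgav was lost in mouse 2 alone (-1.07, edgeR adjusted p = 0.239). Itga9, a tenascin receptor chain, fell from a median of 38.4 CPM to 12.6 CPM (-1.86, adjusted p = 0.000415). Itga2b, the alphaIIb partner of beta3, was at medians of 2.15 and 0.922 CPM (-0.99, adjusted p = 0.047). The call of Itga2b was lost in 16 of 22 alternatives, 10 of them with a line left out, and DESeq2 and the likelihood ratio fit each called 2 chains of this list lower. The groups did not overlap for any of these 4 genes, which are named because they were called. Among all tested genes 25.6% had groups that did not overlap.

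Of selectins and the enzymes that build their ligands, 13 of 19 were tested, 3 were called higher and 0 lower, with a median log2 fold change of 0.23. At an unadjusted edgeR p under 0.05, 4 were higher and 0 lower, and DESeq2 called 2 higher and 0 lower. Fut4, a fucosyltransferase for selectin ligands, rose from a median of 2.71 to 25.6 CPM (log2 fold change 2.58, edgeR adjusted p = 0.00472). Tpst1, which sulfates tyrosines such as those of PSGL-1, rose from a median of 24.7 to 48.0 CPM (1.13, adjusted p = 0.0239), and its call was lost in DESeq2 (adjusted p = 0.0795), without EV 2B (0.051) and without BCR-ABL1 1A (0.0514). C1galt1, which makes the core of the O-glycans, had the highest mean CPM of the list, and its log2 fold change was -0.08 (adjusted p = 1). Chst2, a sulfotransferase, was called with mouse as a block (adjusted p = 0.0398) and is named after its values were seen. It was not called by edgeR without a block (adjusted p = 0.056) or in mouse 2 alone (0.577). Chst2 was rare, at no more than 0.276 CPM in EV lines and 0.564 CPM in BCR-ABL1 lines, and the groups overlapped.

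Of integrin ligands, 9 of 19 were tested, with 2 called higher, 2 lower and a median of -0.76. Icam1, the ligand of LFA-1, rose from a median of 5.54 to 16.6 CPM (1.83, edgeR adjusted p = 0.0242), and Cdh1, the ligand of alphaEbeta7, was rare, at no more than 0.245 CPM in EV lines and no more than 1.87 CPM in BCR-ABL1 lines (adjusted p = 0.0231). The call of Icam1 was lost without BCR-ABL1 1A (adjusted p = 0.0511), without BCR-ABL1 1B (0.0539) and in mouse 2 alone (0.268), and that of Cdh1 without EV 1C (0.0552), without BCR-ABL1 2B (0.0521) and with the line pair as a block (0.078). Spp1, which encodes osteopontin, a ligand of alpha4 and alphav integrins, fell from a median of 57.6 to 6.34 CPM (-3.21, adjusted p = 3e-05). Lamb1, a laminin chain, had a median of 5.50 CPM (0.198 to 8.24) with the empty vector and did not exceed 0.137 CPM with BCR-ABL1 (adjusted p = 0.000705). The call of Lamb1 was lost in mouse 2 alone (-5.05, edgeR adjusted p = 0.0888). Lamc1, another laminin chain and the gene of the list with the highest mean CPM, had a log2 fold change of 1.13 (adjusted p = 0.0639), and it was called with mouse as a block (adjusted p = 0.0103).

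Of the genes that activate integrins and link them to actin, 27 of 33 were tested, and 3 were called higher and 1 lower, with a median of -0.12. Rasgrp1, a Ras exchange factor, rose from a median of 3.88 CPM (0.0461 to 9.05) to a median of 51.1 CPM (38.6 to 89.1, log2 fold change 3.82, edgeR adjusted p = 0.0268). The call of Rasgrp1 was lost without BCR-ABL1 1C (adjusted p = 0.0502) and with the line pair as a block (0.0729). Ptk2, the focal adhesion kinase, was at 0 to 0.184 CPM and 0.220 to 2.05 CPM (adjusted p = 0.00546), and Tln2, talin-2, was at 0 to 0.491 CPM and 0.311 to 2.68 CPM (adjusted p = 0.0305, and 0.0539 with mouse as a block). The call of Tln2 was lost in 10 of 21 alternatives, 7 of them with a line left out. Rapgef3, which encodes the Rap1 exchange factor Epac1, fell from a median of 31.1 to 10.9 CPM (-1.53, adjusted p = 0.000759). Tln1, talin-1, with the highest mean CPM of the list at medians of 423 and 382 CPM, had a log2 fold change of -0.27 (adjusted p = 1). Against no change Tln1 was called lower (edgeR adjusted p = 0.0164). Vcl, vinculin, was called with mouse as a block (adjusted p = 0.0109), and is named after its values were seen. It was not called by edgeR without a block (adjusted p = 0.166) or in mouse 2 alone (0.462), and its groups overlapped.

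None of 11 tested genes of 16 for CD44 ligands, linkers and sheddases, and none of 8 tested of 11 tetraspanins and other partners, were called by edgeR, DESeq2 or the likelihood ratio fit, with median log2 fold changes of 0.00 and -0.36. At an unadjusted edgeR p under 0.05, 1 gene of the first list (Ezr) was higher and 1 of the second (Cd9) was lower. Rdx, radixin, which links CD44 to actin, had the highest mean CPM of the first list (medians 269 and 314 CPM, log2 fold change 0.25, edgeR adjusted p = 1). Cd37, a tetraspanin of B cells, had the highest mean CPM of the second (medians 297 and 209 CPM, -0.50, adjusted p = 1). These p-values are against 1.5-fold. Against no change the edgeR adjusted p was 0.0208 for Rdx (higher) and 0.000178 for Cd37 (lower). Ezr, ezrin, another linker, had a log2 fold change of 0.76 (adjusted p = 0.0505) and was called with mouse as a block (adjusted p = 0.0387). Ezr and Cd9 too are named after their values were seen.

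**Figure D5:**
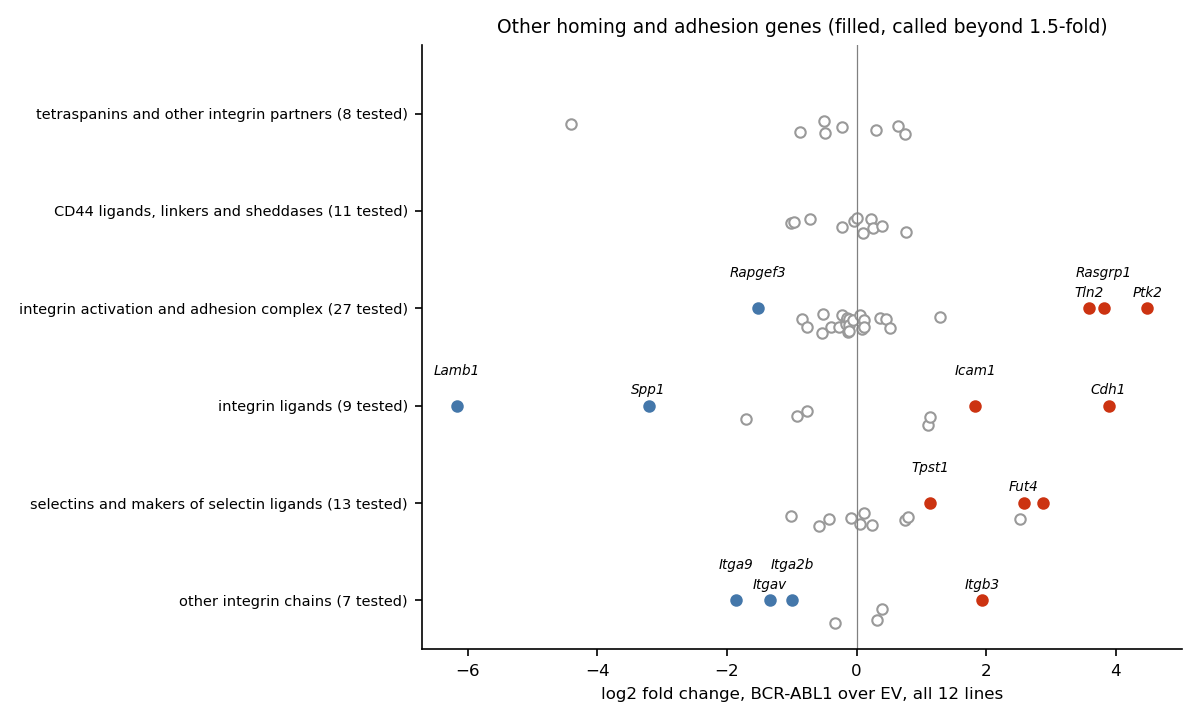
Log2 fold change (BCR-ABL1 over EV, all 12 lines) of the tested genes of each of 6 lists, with genes called beyond 1.5-fold filled and those described in the text named. Calls lay at both ends in 3 of the lists, and the selectin list had 3 genes called higher and 0 lower.

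The genes whose log2 CPM followed each member most closely over the 12 lines were searched among 10638 other tested genes whose log2 CPM averaged 1 or more (10639 for Itgb7). These are descriptions of 12 points that share condition and mouse. Rps6ka1 (Pearson r = 0.996) and Foxc1 (0.995) were closest to Itga6, Bmpr2 (0.972) to Itgal, and Pstpip1 (0.983) and Hsd17b7 (0.970) to Itgb7. Foxc1 ran from 23.9 to 75.5 CPM in EV lines and from 156 to 190 CPM in BCR-ABL1 lines. Syne1 (0.971) and Nt5dc1 (0.968) were closest to Itga4, Ankrd24 (0.980) and Mib1 (0.960) to Itgb1, and Ankle2 (0.948) and Prex1 (0.946) to Itgb2. Zdhhc18 (0.971) and Def6 (0.970) were closest to Selplg, and Arhgap24 (0.973) and Dync2h1 (0.970) to Cd44. Among the members themselves, Itga6 had r = 0.94 with Itgb7 and 0.93 with Itgal, and Cd44 had -0.87 with Selplg and -0.79 with Itgal.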

How the data were processed

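Stranded total RNA libraries of 12 pre-B cell lines, 6 EV and 6 BCR-ABL1, were sequenced. The authors deposited whole-number counts per gene, not normalized and not pooled. The submitters' processing notes name FastQC 0.11.5, Trimmomatic 0.36, TopHat2 2.1.1, Bowtie2 2.3.2, featureCounts 1.5.3 and GRCm38. The strand setting of the counting is not given in the sources used here. Symbols, positions and merged exon lengths are from GENCODE M21, which named 51633 of 51826 genes.

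Counts were filtered with filterByExpr, scaled by TMM and tested in edgeR 4.0.16 (R 4.3.3) by quasi-likelihood glmTreat against 1.5-fold, following the study's stated fold and threshold, with Benjamini-Hochberg adjustment at 0.05. Differences between mice used glmQLFTest, and ratios used two-sided exact permutation of log2 CPM (prior count 2). The SE of a fold change was computed from the spread of log2 CPM (prior count 2) between the lines of each group. It is not an estimate of the edgeR fit, whose fold change can differ from the difference of mean log2 CPM. Figures used matplotlib 3.10.9. The fits were tested on simulated counts. No pair of lines was a duplicate by chi-square. Intervals are not given for shares of RNA, and the floor of 3 counts covers counting error only.

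Lines were named from GEO titles, and the first digit is the mouse. Deviations from group means correlated between 0.0853 and 0.24 where EV and BCR-ABL1 lines came from the same animal, between -0.203 and -0.0636 where they came from different animals, and between 0.0853 and 0.212 where the letter was shared too, so the mouse pairs the lines. Lines are separate transductions of 2 mice, so p-values measure spread between lines. Members and lists were chosen with earlier results of these data known. Named are all members, up to 5 called genes per direction and the most abundant gene of each list, and the 2 genes most like each member. Some genes that this rule names are not reported here. Alternatives were DESeq2's size factors, DESeq2 1.42.0, other gene filters, a likelihood ratio fit, no fold threshold, a block of mouse or of line pair, each mouse alone, and each line left out.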

Additional observations from a re-analysis of the deposited data

Results flagged for a closer look

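In 16 groups of 6 lines, a line far from the others was found in 2, and chance gives about 1 in 20 groups. Both were EV 2C, at 10.9 CPM of Itgal, above the other EV lines, and at 27.5 CPM of Cd44, below them.

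The BCR-ABL1 effect differed between the mice for several genes in edgeR's interaction test, given here as the log2 effect in mouse 2 minus that in mouse 1. It was -1.54 for Itga6, -1.92 for Itgb7 and 0.79 for Cd44 among the members. Among the other adhesion genes, 23 of 75 tested were called in this test (30.7%), beside 16.9% of all tested genes. For those named in the report it was -1.98 for Fut4, 1.35 for Spp1, -1.28 for Lamc1, -6.29 for Rasgrp1, -5.05 for Tln2 and 0.85 for Rapgef3. Lamc1 was not called over all 12 lines.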

How the results depend on the processing

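The count of members called higher, 1 over all 12 lines, was 3 in the likelihood ratio fit, 3 with mouse as replicate block, 2 with the line pair as block, 3 in mouse 1 alone and 5 against no change, and 1 to 2 with a line left out. No share of all genes is given for the likelihood ratio fit, the line pair block or the fits with a line left out. The count called lower was 1 in mouse 1 alone and 1 against no change, and 0 to 0 with a line left out. For other adhesion genes, 22 were called higher and 17 lower against no change, beside 22.5% and 25.9% of all tested genes. In mouse 1 alone 21 were called higher and 10 lower, beside 16.3% and 12.2%. In mouse 2 alone 6 were called higher and 5 lower, beside 3.99% and 2.65%. With a line left out, 6 to 13 were called higher and 5 to 9 lower. Members whose effect differed between the mice numbered 1 with a filter of at least 1 CPM in at least 6 lines, which removes Itgb7, 4 with no gene filter, and 2 to 4 with a line left out.

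The log2 fold change of Itga4 changed sign, at 0.03 with no gene filter, 0.02 with the line pair as block, 0.25 in mouse 1 alone and -0.16 to 0.10 with a line left out. The difference between the mice of Itgb2 was -0.07 without EV 2C and ran to 0.29 with other lines left out. The ratio of Itga5 to Itga4 was 0.27 in mouse 1 alone and -0.75 to -0.18 with a line left out. That of Cd44 to Selplg was -1.53 in mouse 1 alone, -0.54 in mouse 2 alone and -1.16 to -0.92 with a line left out. The causes were not tested. Of the other re-fitted log2 fold changes of members, 152 kept their direction and side of the threshold and 15 newly passed it, and of the differences between mice 104 kept both, 4 newly passed and 10 were lost. Of these 10, 9 were of Cd44 with a line left out and 1 was of Cd44 under the CPM filter. Labelings within each mouse as replicate block gave exact p of 0.005 for Itga6 to Itga4, 0.02 for Itgal to Itgb2, 0.01 for Cd44 to Selplg and 0.03 for Itgb7 to Itgb1.

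Depth limits Itga5 and Itgb7, and 2 mice and 1 contrast in which transformation and IL7 withdrawal coincide limit what the comparison can separate.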
